A study of Rattus norvegicus with 8 samples.

Results

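The genes described are the heat-shock proteins and DnaJ cochaperones measured in dorsal spinal cord of nerve-injured rats. They were taken by name alone, as every gene whose symbol in the platform annotation starts with Hspa, Hspb and a digit, Hspd1, Hspe1, Hsph1, Hsp90 or Dnaj. This gave 62 genes on 71 probe sets, out of 14506 named genes and 29214 probe sets in all. Hspa1a, Hspa1b and Hspa1l, the group that holds the strongly heat-inducible Hsp70 genes, share 1 probe set that carries several symbols, so they were not measured as single genes and no value is given for them.

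The experiment compared 4 HDACi-treated with 4 vehicle-treated adult male Wistar rats, all of which had an L5 spinal nerve transection, and there was no uninjured group. The HDACi was MS-275, a histone deacetylase inhibitor selective for class I enzymes, given intrathecally from an osmotic pump at 30 nmol per day, and the vehicle was the same DMSO solution in saline without it. Dorsal lumbar cord of the injured side was taken at day 14 and its total RNA was hybridized to 1 Affymetrix Rat Gene 1.0 ST array per replicate. The values are log2 RMA signals, in which 1 unit is a doubling of the signal, and each replicate is a block of tissue with many cell types, so fewer cells of a type and less RNA per cell cannot be told apart.

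Chaperones of the Hsp70 class bind unfolded stretches of protein in cycles of ATP hydrolysis. DnaJ proteins start the cycle by bringing clients and stimulating the ATPase, and Hsp110 proteins and other exchange factors end it by releasing ADP. Hsp90 takes over many partly folded clients, the chaperonin of mitochondria folds proteins inside a closed chamber, and small heat-shock proteins hold clients without using ATP. Many of these genes are switched on by heat-shock factor HSF1, while those of the endoplasmic reticulum answer to the unfolded protein response. Neurons hold high levels of several constitutive members, and HSPB1 and HSPB8 are known in humans as genes of inherited motor neuropathy.

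The signal of most members was slightly lower in HDACi than in vehicle cord. The log2 fold change was below 0 for 49 of 62 members (79.0%), against 57.9% of all genes, and its median was -0.05 for the members against -0.01 for all genes. Differences ran between -0.19 for Hspd1 and 0.28 for Hspa2. With limma, 0 of 62 members passed an unadjusted p under 0.01, the threshold the study used, where the background over all genes was 0.855% lower, 0.607% higher and 1.46% in either direction. After Benjamini-Hochberg adjustment over all genes, 0 members and 0% of all genes passed 0.05, and the smallest adjusted p of a member was 0.610. At an unadjusted p under 0.05 in limma, 7 members (11.3%) were lower, against a background of 4.96%, and 1 member was higher, against 2.79%. The count of 7 was smaller without some arrays, each time with fewer samples in the test. It was 2 (3.23%) without vehicle 2, against 5.2% of all genes in the same fit. It was 3 (4.84%) without HDACi 2 or vehicle 3, against 3.66% and 3.95% of all genes, and 4 (6.45%) without HDACi 3 or HDACi 4, against 4.04% and 3.33%. Of the 8 members past 0.05 in either direction, Hspd1 stayed past it in limma in all 8 fits without a single array, Dnajc22 in 7, Dnaja1, Dnajc16 and Hspa4l in 4 each, Hspa5 and Hspa12a in 2 each and Dnajb11 in 1. The HDACi and vehicle values did not overlap for 3 lower members (Hspa4, Dnajc16 and Dnajc18), against a background of 3.6%, and for 1 higher member (Dnajc22), against 1.42%. A p that misses a threshold does not show that the levels did not differ.

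**Figure D1:**
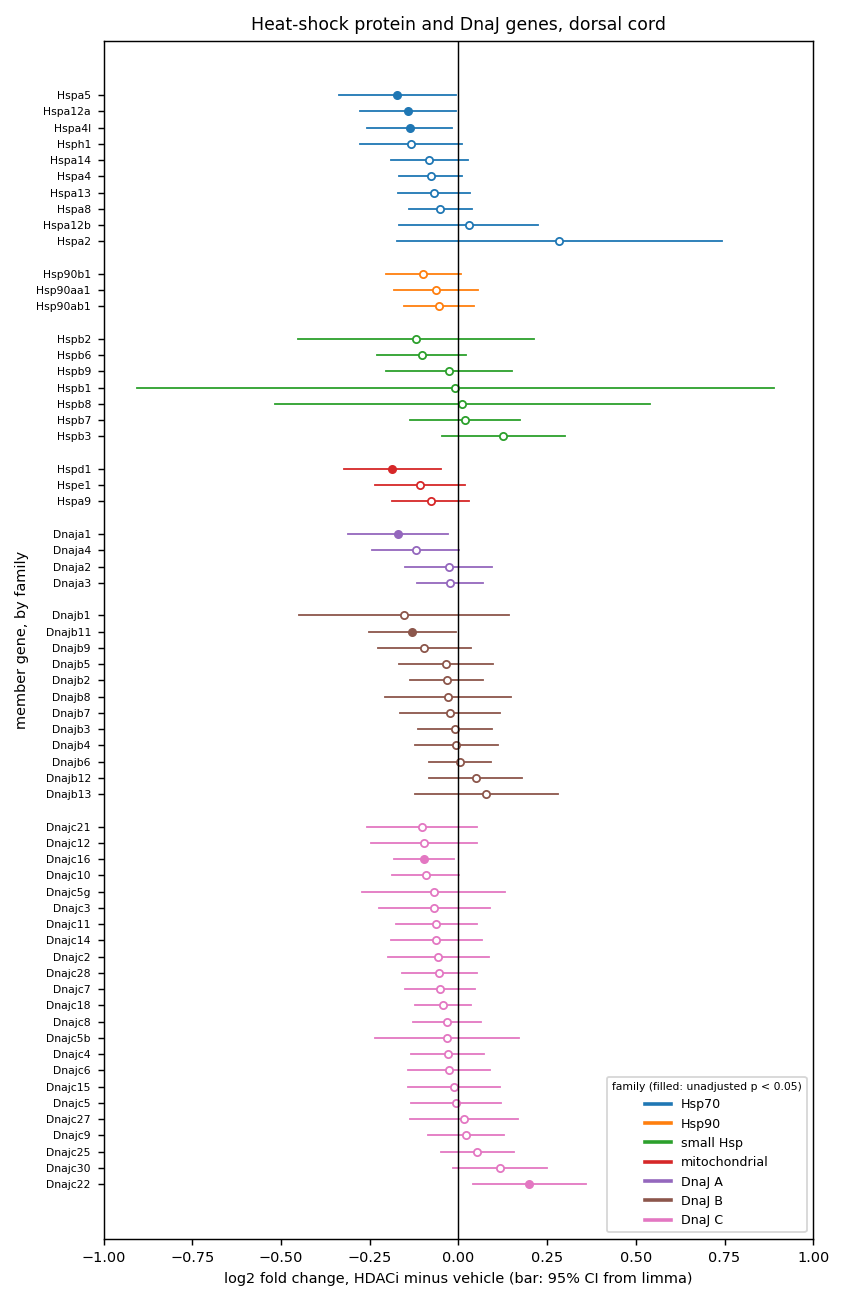
Log2 fold change of each of the 62 genes, HDACi minus vehicle, with the 95% confidence interval from limma as a bar, grouped by family from top to bottom. Filled points have an unadjusted p under 0.05, and 49 of 62 points lie left of 0. The widest interval is that of Hspb1, from -0.91 to 0.89.

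The families differed in how far their medians lay from 0. The median log2 fold change was -0.11 for the 3 mitochondrial members, all of them below 0. It was -0.08 for the 10 Hsp70 genes, with 8 below 0, and -0.06 for the 3 Hsp90 genes, with 3 below 0. Among the cochaperones it was -0.07 for the 4 DnaJ A genes, with 4 below 0, -0.03 for the 12 DnaJ B genes, with 9 below 0, and -0.04 for the 23 DnaJ C genes, with 18 below 0. The small heat-shock proteins had a median of -0.01, with 4 of 7 below 0, and this median was 0.03 with array quality weights and -0.10 without vehicle 3 or vehicle 4. These are descriptions, since the difference between families was not tested.

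Of the mitochondrial members, Hspd1, the Hsp60 chaperonin that forms the folding chamber, had the largest difference of all lower members. Its signal was 9.43, 9.22, 9.36 and 9.32 in HDACi cord and 9.42, 9.54, 9.48 and 9.63 in vehicle cord. HDACi 1 reached the lowest vehicle array, and the other 3 HDACi arrays lay below every vehicle array. The log2 fold change was -0.19 (SE 0.06, 95% interval -0.32 to -0.05), or 0.879-fold, with p = 0.0128 and an adjusted p of 0.610 in limma and an exact two-sided permutation p of 0.0571. With 4 against 4 arrays the smallest exact p is 0.0286. The gene has 2 probe sets, and both were lower. The brighter had 10.64, 10.54, 10.61 and 10.65 in HDACi cord and 10.71, 10.84, 10.73 and 10.86 in vehicle cord. Those 2 groups did not overlap, and limma over all probe sets gave -0.18 (SE 0.05, p = 0.00788, adjusted p = 0.716, exact permutation p = 0.0286), where 0.616% of all probe sets were lower at p under 0.01 and 2.82% were lower without overlap. The dimmer probe set differed by -0.20 (SE 0.08, p = 0.0369 and adjusted p = 0.724 in limma, exact permutation p = 0.0571). RefSeq lists 20 pseudogene copies of Hspd1 in the rat genome, so signal of near-identical sequence cannot be assigned to the gene with certainty.

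Hspe1, the Hsp10 lid of the same chamber, had 10.37, 10.20, 10.26 and 10.25 in HDACi cord and 10.32, 10.39, 10.31 and 10.49 in vehicle cord. Its groups overlapped through HDACi 1, and the log2 fold change was -0.11 (SE 0.06, adjusted p = 0.677 in limma, exact permutation p = 0.114). Hspa9, the mitochondrial Hsp70 that pulls imported proteins through the inner membrane, had 10.95, 10.79, 10.81 and 10.77 in HDACi cord and 10.89, 10.92, 10.89 and 10.93 in vehicle cord. HDACi 1 was again the exception, here above every vehicle array, while the other 3 lay below all of them, and the log2 fold change was -0.08 (SE 0.05, adjusted p = 0.720 in limma, exact permutation p = 0.143). Of 9 measured members taken to work in mitochondria, which include Dnaja3, the mitochondrial partner of Hspa9, 8 were below 0 with a median of -0.05. Dnajc30, a mitochondrial J protein tied to respiratory chain function, was the other one, at 0.12 (SE 0.06, adjusted p = 0.673 in limma, exact permutation p = 0.143).

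Hspd1 and Hspe1 lie head to head on chromosome 9, and their promoter windows (RefSeq, GRCr8, 250 bases before to 50 after each start) overlap by 211 bases, at chr9:64084077-64084287. Within that overlap lies a run of heat-shock units, inverted GAA and TTC triplets spaced by 2 bases, which is shown because both genes carry it. Capitals mark the overlapping matches to the 3-unit element. The Hspe1 stretch is at chr9:64084247-64084294 on the plus strand, and the Hspd1 stretch is the same place read on the minus strand, at chr9:64084247-64084287.
Hspe1: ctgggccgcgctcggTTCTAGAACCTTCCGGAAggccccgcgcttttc
Hspd1: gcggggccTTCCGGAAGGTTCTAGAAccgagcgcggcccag

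**Figure D2:**
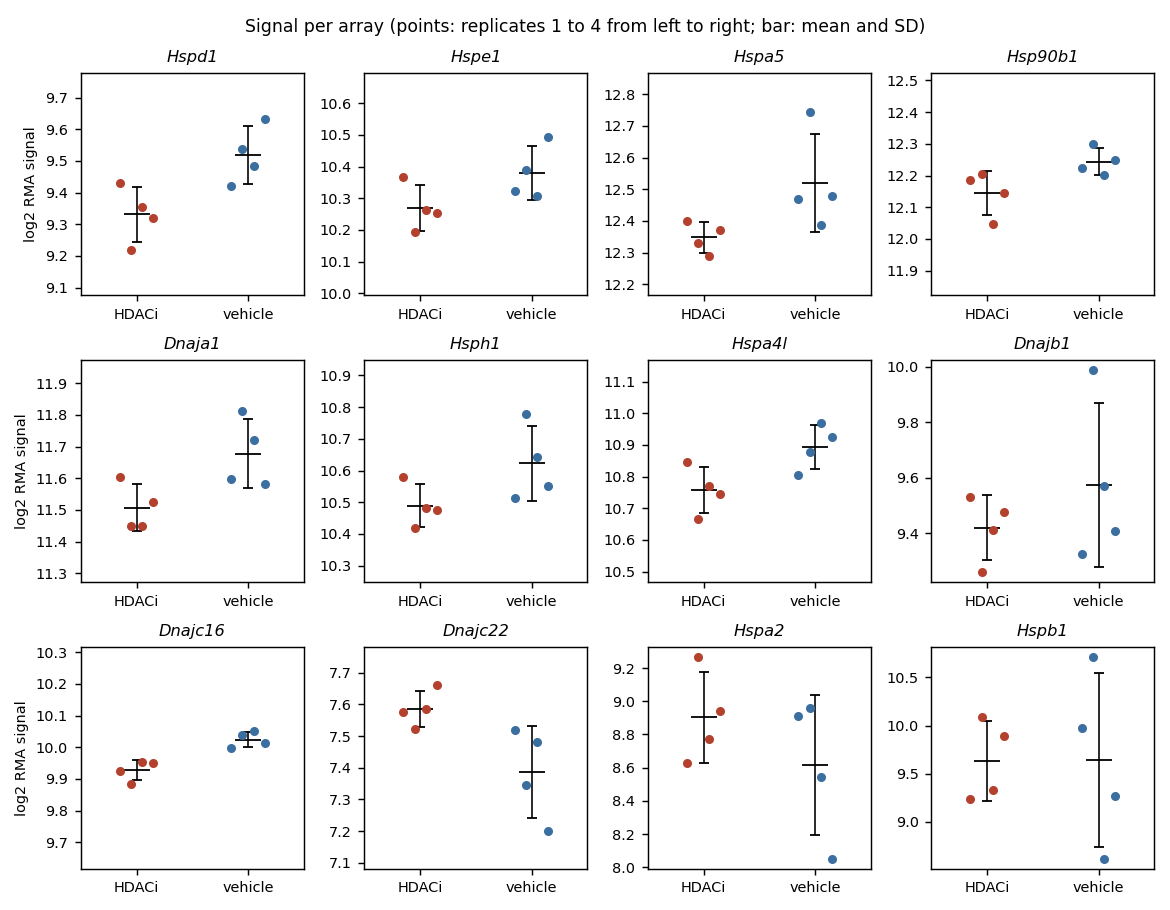
Log2 RMA signal of 12 member genes on each array, HDACi left and vehicle right, with points for replicates 1 to 4 from left to right and a bar for the mean and SD of 4 arrays. Dnajc16 and Dnajc22 show groups that do not overlap, while in Dnajb1 a single vehicle array, at 9.99, stands above the other 7, and Hspb1 runs from 8.62 to 10.71 within vehicle alone.

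In the endoplasmic reticulum the signals of the main luminal chaperones were lower by small amounts. Hspa5, the luminal Hsp70 also called BiP, had 12.40, 12.33, 12.29 and 12.37 in HDACi cord and 12.47, 12.74, 12.39 and 12.48 in vehicle cord. The groups met at HDACi 1 and vehicle 3, and vehicle 2 stood highest. The log2 fold change was -0.17 (SE 0.07, p = 0.0426 and adjusted p = 0.640 in limma, exact permutation p = 0.0571), and it was -0.10 without vehicle 2. Hsp90b1, the luminal Hsp90 also called Grp94, had 12.19, 12.20, 12.05 and 12.14 in HDACi cord and 12.22, 12.30, 12.20 and 12.25 in vehicle cord. These groups touched at 12.20, and the difference was -0.10 (SE 0.05, adjusted p = 0.653 in limma, exact permutation p = 0.0571).

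The J proteins that serve BiP were below 0 as well. Dnajb11, which carries clients to BiP, had 9.39, 9.38, 9.31 and 9.40 in HDACi cord and 9.52, 9.59, 9.36 and 9.54 in vehicle cord. All but vehicle 3 lay above the HDACi arrays, and the log2 fold change was -0.13 (SE 0.05, p = 0.0397 and adjusted p = 0.637 in limma, exact permutation p = 0.114). Without vehicle 3 it was -0.18 and past an unadjusted p of 0.01 in limma, and without any other single array it lay between -0.14 and -0.10 and was not past 0.05. Dnajc10, which reduces disulfide bonds of proteins bound for degradation, differed by -0.09 (SE 0.04, adjusted p = 0.642 in limma, exact permutation p = 0.0571). Dnajb9, induced by the unfolded protein response, differed by -0.10 (SE 0.06, adjusted p = 0.716 in limma, exact permutation p = 0.171), and Dnajc3, a luminal cochaperone of the same response, by -0.07 (SE 0.07, adjusted p = 0.853 in limma, exact permutation p = 0.514). Of 12 measured members taken to work in the endoplasmic reticulum 9 were below 0, with a median of -0.08. The other 3 were above 0, the highest of them Dnajc22 at 0.20, which is described with the DnaJ C genes.

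Hspa5, Hsp90b1 and Dnajc3 share a promoter feature that their names do not fix. They are the 3 members, of 50 matched to a promoter window, with the endoplasmic reticulum stress element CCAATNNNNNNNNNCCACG on either strand. That is 6% of the matched members, against 0.0657% of 33469 promoter windows of 300 bases. Their log2 fold changes were all below 0, with a median of -0.10, where 79.0% of all members were below 0. The stretches are shown with the element in capitals, in the direction of each gene, at chr3:38452958-38453006 on the plus strand for Hspa5, chr7:23012436-23012484 and chr7:23012332-23012380 on the minus strand for Hsp90b1, and chr15:102432519-102432567 on the plus strand for Dnajc3. A match describes letters in the window and is not a measured site.
Hspa5: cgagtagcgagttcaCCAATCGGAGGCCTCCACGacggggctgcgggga
Hsp90b1, first: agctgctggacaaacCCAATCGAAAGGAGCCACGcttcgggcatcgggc
Hsp90b1, second: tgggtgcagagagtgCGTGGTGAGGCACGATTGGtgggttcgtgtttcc
Dnajc3: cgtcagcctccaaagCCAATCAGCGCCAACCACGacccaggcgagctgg

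Among the cytosolic Hsp70 genes, Hspa8, the constitutive Hsc70, had 13.59, 13.50, 13.56 and 13.59 in HDACi cord and 13.60, 13.66, 13.60 and 13.59 in vehicle cord. Its log2 fold change was -0.05 (SE 0.04, adjusted p = 0.781 in limma, exact permutation p = 0.0571). All 8 of its probe sets were below 0, between -0.07 and -0.03, but RefSeq lists 33 pseudogene copies of this gene, so its probe sets cannot be taken as independent measurements. The 3 exchange factors of the Hsp110 branch had larger differences. Hspa4l had 10.84, 10.67, 10.77 and 10.75 in HDACi cord and 10.80, 10.88, 10.97 and 10.93 in vehicle cord. Only HDACi 1 reached the vehicle range, and the difference was -0.14 (SE 0.05, p = 0.0285 and adjusted p = 0.627 in limma, exact permutation p = 0.0571).

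Hspa4 had 10.91, 10.85, 10.82 and 10.86 in HDACi cord and 10.91, 10.98, 10.92 and 10.93 in vehicle cord. Its groups did not overlap, although HDACi 1 and vehicle 1 are equal to 2 decimals, and the log2 fold change was -0.08 (SE 0.04, adjusted p = 0.672 in limma, exact permutation p = 0.0286). Hsph1, the heat-inducible Hsp105, had 10.58, 10.42, 10.48 and 10.48 in HDACi cord and 10.51, 10.78, 10.64 and 10.55 in vehicle cord. HDACi 1 lay within the vehicle range and vehicle 2 was the highest of all, and the difference of -0.13 (SE 0.06, adjusted p = 0.656 in limma, exact permutation p = 0.0857) became -0.08 without vehicle 2.

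The more distant Hsp70 genes went in both directions. Hspa12a, an atypical Hsp70 abundant in brain, had 10.91, 10.82, 10.86 and 10.79 in HDACi cord and 10.98, 11.13, 10.96 and 10.86 in vehicle cord. The overlap came from vehicle 4, and the log2 fold change was -0.14 (SE 0.06, p = 0.0432 and adjusted p = 0.640 in limma, exact permutation p = 0.0571). It was -0.09 without vehicle 2, and past 0.05 in limma only without HDACi 1 or vehicle 4. Hspa12b, its relative of endothelial cells, differed by 0.03 (SE 0.09, adjusted p = 0.956 in limma, exact permutation p = 0.771). Hspa14, which works at the ribosome, differed by -0.08 (SE 0.05, adjusted p = 0.713 in limma, exact permutation p = 0.143), and Dnajc2, its ribosomal partner, by -0.06 (SE 0.06, adjusted p = 0.868 in limma, exact permutation p = 0.457). Hspa2, best known from the testis, had 8.63, 9.27, 8.77 and 8.94 in HDACi cord and 8.91, 8.96, 8.54 and 8.05 in vehicle cord. The groups overlapped widely and vehicle 4 was far below the rest. The difference of 0.28 (SE 0.20, adjusted p = 0.762 in limma, exact permutation p = 0.343) was the largest of any member, and it was 0.10 without vehicle 4.

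The heat-shock element searched for was GAANNTTCNNGAA (3 units) on either strand, and GAANNTTC for 2 units, which every 3-unit match also contains. The 3-unit element was in the windows of 5 of the 50 matched members (10%), against 0.798% of all 33469 windows. These 5 genes were Dnaja1, Hspa8, Hspd1, Hspe1 and Hsph1. All had log2 fold changes below 0, with a median of -0.13, where 79.0% of all members were below 0. Hspd1 and Hspe1 share their matches, as shown with the mitochondrial members, and the match of Dnaja1 lies after its start. Hsp90aa1 was among the members without a matched window. The 2-unit form was in 13 members (26%), against 8.59% of all windows, and 11 of these were below 0. The stretches of Hspa8 and Hsph1 are shown in gene direction, with the 3-unit element in capitals, at chr8:50080286-50080328 and chr8:50080444-50080486 for Hspa8 and chr12:10427317-10427359 for Hsph1, all on the plus strand.
Hspa8, first: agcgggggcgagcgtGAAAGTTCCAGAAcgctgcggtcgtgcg
Hspa8, second: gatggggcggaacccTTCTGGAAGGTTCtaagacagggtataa
Hsph1: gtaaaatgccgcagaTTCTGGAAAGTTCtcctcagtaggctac

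The cytosolic Hsp90 genes differed little. Hsp90aa1, the more inducible form, had 12.66, 12.48, 12.55 and 12.54 in HDACi cord and 12.54, 12.68, 12.60 and 12.66 in vehicle cord. Its arrays were mixed between the groups, and the log2 fold change was -0.06 (SE 0.05, adjusted p = 0.802 in limma, exact permutation p = 0.314). Hsp90ab1, the constitutive form, had 12.80, 12.77, 12.82 and 12.82 in HDACi cord and 12.80, 12.95, 12.82 and 12.86 in vehicle cord. Vehicle 2 alone was clearly above the others, and the difference of -0.05 (SE 0.04, adjusted p = 0.792 in limma, exact permutation p = 0.143) was -0.02 without it. RefSeq lists 16 pseudogene copies of Hsp90aa1 and 23 of Hsp90ab1.

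The DnaJ A and B genes hold the general partners of Hsp70. Dnaja1, a main cytosolic J protein, had 11.60, 11.45, 11.45 and 11.53 in HDACi cord and 11.60, 11.81, 11.72 and 11.58 in vehicle cord. HDACi 1 lay within the vehicle range and the other HDACi arrays below it, with a log2 fold change of -0.17 (SE 0.06, p = 0.0228 and adjusted p = 0.626 in limma, exact permutation p = 0.0857). It was -0.13 without vehicle 2, and not past 0.05 in limma without HDACi 2, HDACi 3, vehicle 2 or vehicle 3. Dnaja2 and Dnaja3 lay near 0, at -0.03 and -0.02.

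Dnaja4 had 8.69, 8.68, 8.77 and 8.57 in HDACi cord and 8.79, 8.89, 8.75 and 8.75 in vehicle cord. HDACi 3 alone overlapped with vehicle, and the difference was -0.12 (SE 0.05, adjusted p = 0.644 in limma, exact permutation p = 0.0857). A further probe set, which the study annotated to Dnaja4 and which the platform annotation used here does not name, is no member by the rule and is named with its values known. It had 9.41, 9.31, 9.31 and 9.34 in HDACi cord and 9.56, 9.76, 9.65 and 9.53 in vehicle cord. These groups did not overlap, and the difference was -0.28 (SE 0.06, p = 8.4e-04, adjusted p = 0.716 in limma over all probe sets, exact permutation p = 0.0286).

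Dnajb1, the heat-inducible Hsp40, had 9.53, 9.26, 9.41 and 9.48 in HDACi cord and 9.32, 9.99, 9.57 and 9.41 in vehicle cord. The difference of -0.15 (SE 0.13, adjusted p = 0.810 in limma, exact permutation p = 0.457) came from vehicle 2 and was -0.01 without it. Apart from Dnajb1 and Dnajb11, the other 10 DnaJ B genes lay between -0.10 and 0.08. Among these, Dnajb6, which keeps polyglutamine proteins from aggregating, was at 0.00 (SE 0.04), and Dnajb2, a J protein of neurons, at -0.03 (SE 0.05). The highest was Dnajb13, a protein of cilia and sperm tails, at 0.08 (SE 0.09, adjusted p = 0.869 in limma, exact permutation p = 0.486). Dnajb12 had 2 probe sets with identical values, which add nothing to each other.

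Most of the 23 DnaJ C genes, which have specialised posts, differed by less than 0.10. The lowest was Dnajc21, a factor of ribosome maturation, at -0.10 (SE 0.07, adjusted p = 0.745 in limma, exact permutation p = 0.200). Dnajc16, a J protein of the endoplasmic reticulum, had 9.92, 9.88, 9.95 and 9.95 in HDACi cord and 9.997, 10.04, 10.05 and 10.01 in vehicle cord. All HDACi arrays lay below all vehicle arrays, by a log2 fold change of -0.10 (SE 0.04, p = 0.0303 and adjusted p = 0.627 in limma, exact permutation p = 0.0286). Dnajc18 was also separated, with 10.59, 10.58, 10.60 and 10.58 in HDACi cord and 10.63, 10.61, 10.65 and 10.62 in vehicle cord. That gap was only -0.04 (SE 0.04, adjusted p = 0.795 in limma, exact permutation p = 0.0286), and its spread within groups was at the 0.0689 percentile of all genes, among the smallest measured. Dnajc22, whose fly counterpart acts in endocytosis, was the member with the clearest difference upward. It had 7.58, 7.52, 7.59 and 7.66 in HDACi cord and 7.52, 7.35, 7.48 and 7.20 in vehicle cord. The groups were separate by less than the second decimal, between HDACi 2 and vehicle 1, and they overlapped after a further quantile normalization or centring of the arrays. The log2 fold change was 0.20 (SE 0.07, p = 0.0196 and adjusted p = 0.610 in limma, exact permutation p = 0.0286). The J proteins of synaptic vesicles lay near 0: Dnajc5, the cysteine string protein, at -0.01 (SE 0.06) and Dnajc6, the auxilin of clathrin uncoating, at -0.03 (SE 0.05).

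The small heat-shock proteins had no common direction, and of all members Hspb1 and Hspb8 varied most between replicates. In the rest of this family the spread within groups ran from the 41.2 percentile of all genes (Hspb6) to the 97.4 percentile (Hspb2). Outside the family, Hspa2 was at the 98.8 percentile. Hspb1, or Hsp27, had 9.23, 10.08, 9.33 and 9.89 in HDACi cord and 9.98, 10.71, 8.62 and 9.27 in vehicle cord. The means were 9.64 ± 0.42 in HDACi cord and 9.64 ± 0.90 in vehicle cord (SD, n = 4 each), and the log2 fold change of -0.01 (SE 0.40) had a 95% interval from -0.91 to 0.89. Its spread within groups was at the 99.7 percentile of all genes. Hspb8, its relative and partner in selective autophagy, had 7.94, 8.37, 8.36 and 8.17 in HDACi cord and 8.35, 8.90, 7.86 and 7.69 in vehicle cord. The difference was 0.01 (SE 0.23, 95% interval -0.52 to 0.54), and its spread was at the 99.2 percentile. Vehicle 2 was highest for both genes, and vehicle 3 or vehicle 4 was lowest. Of the rest, Hspb2, known from muscle, differed by -0.12 (SE 0.15) and Hspb6, or Hsp20, by -0.10 (SE 0.06, adjusted p = 0.687 in limma, exact permutation p = 0.114). Hspb3, a small heat-shock protein of muscle, had the highest difference of the family, at 0.13 (SE 0.08, adjusted p = 0.716 in limma, exact permutation p = 0.229).

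Marker lists of other cells varied between the same arrays. The mean log2 signal of 5 measured Schwann cell genes of 7 listed, among them Pmp2 and Prx, was 9.23, 11.46, 10.48 and 9.06 in HDACi cord and 11.09, 11.19, 8.92 and 9.67 in vehicle cord. The mean of 3 measured cholinergic motor neuron genes of 5 listed was 7.62, 7.85, 8.23 and 7.39 in HDACi cord and 8.62, 9.27, 7.83 and 8.11 in vehicle cord. For 8 of 9 leptomeningeal fibroblast genes it was 8.63, 9.63, 8.96 and 8.86 in HDACi cord and 9.08, 9.29, 8.62 and 8.84 in vehicle cord. Vehicle 2 was the highest and vehicle 3 the lowest vehicle array in these lists, as in Hspb1, while HDACi 4 was low in Schwann and motor neuron genes but not in Hspb1. Atf3, a transcription factor of injured neurons, had 7.31, 8.47, 7.55 and 7.38 in HDACi cord and 8.70, 9.33, 7.34 and 8.09 in vehicle cord. Its log2 fold change was -0.69 (SE 0.40). The other measured genes of the injured neuron list were Gap43, at -0.09 (SE 0.05), and Gal, at 0.18 (SE 0.16). Gal went the other way from Atf3 and was highest on HDACi 4, at 10.17. Chat, a defining gene of motor neurons, was not analysed here. The first 2 lists and the injured neuron genes were chosen after the arrays were seen. The part of nerve root, meninges or motor neurons in the spread of Hspb1 and Hspb8 was not tested. Genes of neurons were well measured on all arrays, with a list mean between 11.00 and 11.30 in HDACi cord and between 11.19 and 11.28 in vehicle cord.

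The lists of other cell types also differed between the groups. Of 9 neuron genes 8 were below 0, where 57.9% of all genes were. Their median log2 fold change was -0.05, the same to 2 decimals as that of the members. Elavl4, a neuronal RNA-binding protein named after its values were seen, had 10.03, 9.79, 9.95 and 9.85 in HDACi cord and 10.04, 10.08, 10.09 and 10.10 in vehicle cord. These groups did not overlap, and the difference was -0.17 (SE 0.05, p = 0.0102 and adjusted p = 0.610 in limma, exact permutation p = 0.0286). The 3 motor neuron genes were all below 0, with a median of -0.75. Above 0 were 8 of 9 genes of microglia and macrophages (median 0.09) and 9 of 10 of endothelium and mural cells (median 0.10). The same held for 6 of 7 astrocyte genes (median 0.05) and 4 of 7 oligodendrocyte genes (median 0.03). Other glia went the other way, with 5 of 5 Schwann cell genes (median -0.12) and 4 of 4 ependymal genes (median -0.08) below 0. The part of the mix of cells in the lower signal of the members was not tested.

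**Figure D3:**
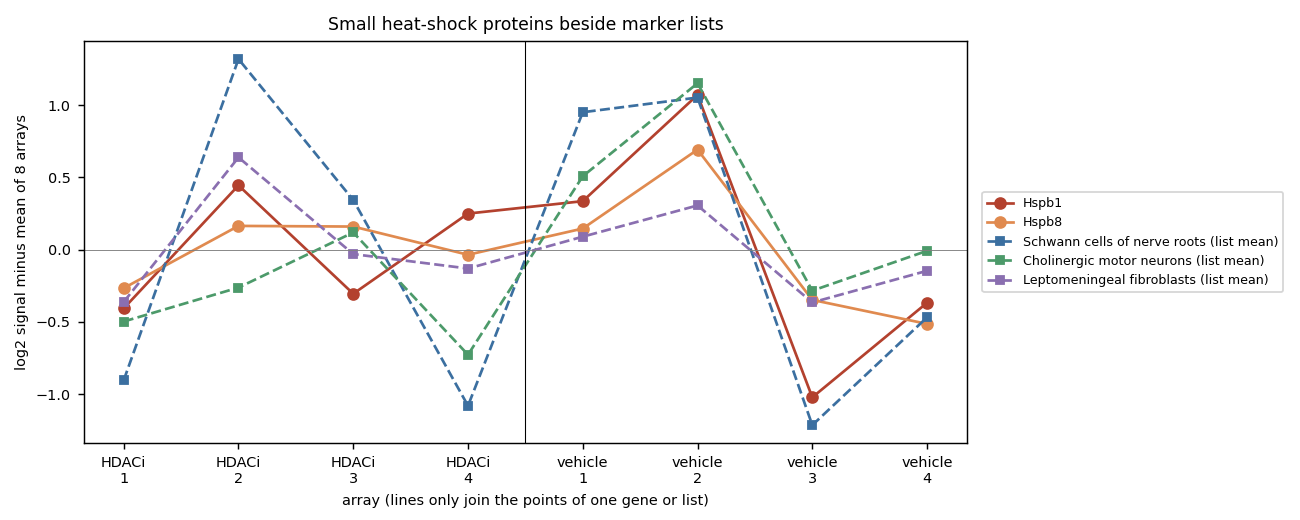
Log2 signal of Hspb1 and Hspb8 and the list means of Schwann cell, cholinergic motor neuron and leptomeningeal genes on the 8 arrays, HDACi left and vehicle right, each as its difference from its own mean over 8 arrays. Lines only join the points of a gene or list. Vehicle 2 lies above and vehicle 3 below the mean in all 5, and HDACi 2 is the highest array for the Schwann cell list, at 11.46.

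Some arrays were the extreme for a larger share of members than of all genes. Vehicle 2 was the highest of the 8 arrays for 24 members (38.7%), against 17.9% of all genes, and HDACi 2 was the lowest for 19 members (30.6%), against 19.2% of all genes. HDACi 3 was the highest for 0 members, against 6.24% of all genes. Vehicle 4 (0.59), HDACi 2 (0.62) and vehicle 2 (0.67) had the lowest array quality weights of the 8 arrays in limma. The mean of all members lay below the vehicle mean by similar amounts on every HDACi array, with differences of -0.03, -0.04, -0.05 and -0.04, whereas the vehicle arrays were at 0.00, 0.07, -0.02 and -0.04. Vehicle 4 was thus as low as the HDACi arrays, and vehicle 2 set the upper end. The median over all genes was 8.58, 8.64, 8.59 and 8.61 on the HDACi arrays. On the vehicle arrays it was 8.63, 8.65, 8.58 and 8.56, so vehicle 2 was highest and vehicle 4 lowest over the named genes too. That order did not hold over all probe sets, with medians of 7.98 on HDACi 2, 7.97 on vehicle 1, 7.96 on vehicle 4 and 7.95 on vehicle 2. After a further quantile normalization or centring of the arrays, vehicle 2 was the highest array for 21 to 24 members. The part of such array-wide differences in the members' values was not tested. Without vehicle 2 the members' median log2 fold change was -0.03, with 47 of 62 below 0.

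**Figure D4:**
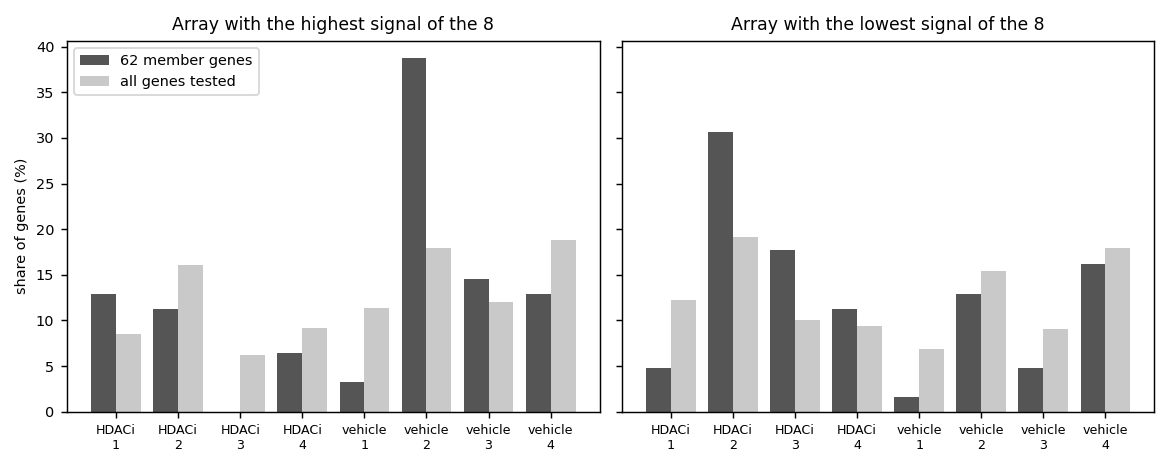
Share of the 62 members and of all genes tested (in percent) for which each array had the highest signal of the 8 (left panel) or the lowest (right panel), HDACi arrays before vehicle arrays. Vehicle 2 is highest for 38.7% of members against 17.9% of all genes, and HDACi 2 is lowest for 30.6% against 19.2%.

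The deviation from the vehicle mean was also taken by family. Vehicle 2 was above the vehicle mean in each of the 7 families, most in the small heat-shock proteins, at 0.23, and in Hsp70, at 0.12. It was not the highest array for the mitochondrial members, where vehicle 4 was, at 0.09, or for DnaJ C, where HDACi 1, vehicle 1, vehicle 2 and vehicle 3 were all at 0.01. On the HDACi arrays the mitochondrial members were at -0.02, -0.20, -0.12 and -0.15, the widest gap of any family on HDACi 2.

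**Figure D5:**
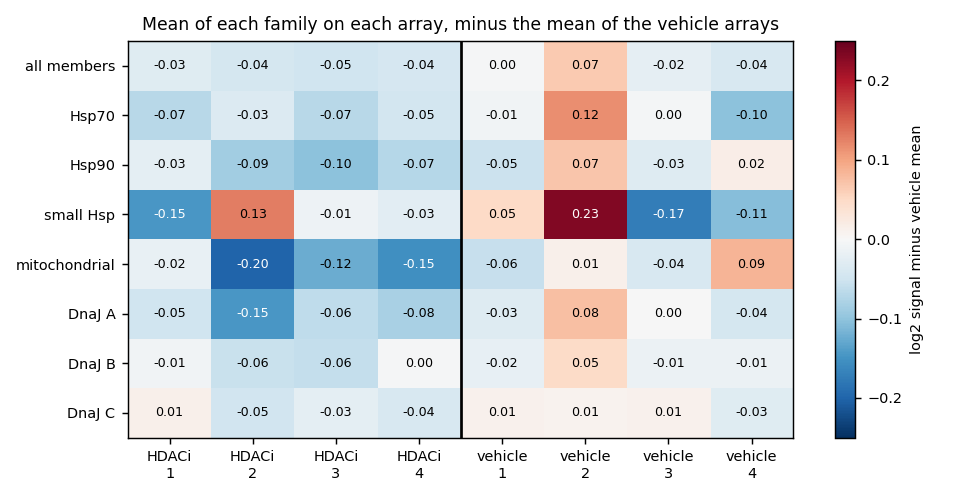
Mean log2 signal of all members and of each family on each array, minus the mean of the 4 vehicle arrays, HDACi arrays left of the line and vehicle arrays right of it. The mitochondrial row is lowest on HDACi 2, at -0.20, and the small heat-shock protein row is highest on vehicle 2, at 0.23.

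Genes that work with the members were taken from lists drawn up with earlier results of these data known, and the lists were not set against the members by a test. Of 13 measured exchange and assembly factors of Hsp70, 11 were below 0 (84.6%, against 57.9% of all genes), with a median of -0.09. In limma 5 of them (38.5%) were lower at an unadjusted p under 0.05, against 4.96% of all genes. Stip1, which hands clients from Hsp70 to Hsp90, had 11.65, 11.33, 11.55 and 11.51 in HDACi cord and 11.59, 11.84, 11.70 and 11.69 in vehicle cord. HDACi 1 alone overlapped with vehicle there, and the difference was -0.20 (SE 0.07, p = 0.0269 and adjusted p = 0.627 in limma, exact permutation p = 0.0571). Hyou1, the exchange factor of BiP that belongs to the Hsp110 group, differed by -0.13 (SE 0.05, p = 0.0230 and adjusted p = 0.626 in limma, exact permutation p = 0.0286). Sil1, the other exchange factor of BiP, went the other way, by 0.10 (SE 0.04, p = 0.0279 and adjusted p = 0.627 in limma, exact permutation p = 0.0286).

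Of 16 measured Hsp90 cochaperones, 15 were below 0 (93.8%, against 57.9% of all genes). Their median was -0.10, and -0.06 without vehicle 2. Cacybp, which binds Siah1 and Hsp90, was the gene of these lists that passed the study's threshold and fell, as did 0.855% of all genes. It had 10.74, 10.74, 10.86 and 10.81 in HDACi cord and 10.90, 11.31, 11.20 and 10.99 in vehicle cord. The groups did not overlap, and the log2 fold change was -0.31 (SE 0.08, p = 0.00478 and adjusted p = 0.610 in limma, exact permutation p = 0.0286). Fkbp4, an immunophilin of steroid receptor complexes, differed by -0.15 (SE 0.06, p = 0.0413 and adjusted p = 0.640 in limma, exact permutation p = 0.114).

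Of 18 measured genes that HSF1 commonly induces in heat shock, 12 of them members, 17 were below 0 (94.4%, against 57.9% of all genes). The list had a median of -0.14. That median was -0.05 without vehicle 2. The list's mean signal was 10.73, 10.72, 10.71 and 10.74 in HDACi cord and 10.79, 11.07, 10.74 and 10.75 in vehicle cord. Vehicle 2 thus stood above the 4 HDACi arrays and the other 3 vehicle arrays, which lay close together. The heat-shock factors themselves and their regulators were near 0, with 3 of 5 below 0 and a median of 0.00. Hsf1 had 9.77, 9.65, 9.66 and 9.69 in HDACi cord and 9.51, 9.79, 9.64 and 9.66 in vehicle cord, a difference of 0.04 (SE 0.06, adjusted p = 0.904 in limma, exact permutation p = 0.514).

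Not every member gave a signal above that of genes which cord is not known to use. On the log2 scale, 6 members (Dnajb7, Dnajb8, Dnajc5b, Dnajc5g, Hspb3 and Hspb7) had means at or below 6.93, the 95th percentile of 1105 olfactory receptor genes. Of these dim members 4 were below 0, and on arrays a true difference at such levels reads smaller than it is. Of the other 56 members, 45 were below 0, with a median of -0.05.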

How the data were processed

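Affymetrix Rat Gene 1.0 ST arrays were hybridized with RNA of 8 dorsal cord samples. The deposited signals are log2 RMA values that the authors made from the scans with oligo in R, with versions not given in the sources used here. RMA sets the probe signals of every array to 1 distribution, so a true shift common to most genes cannot be read from them. Small differences between arrays remained after it. Medians over the named genes ran from 8.56 (vehicle 4) to 8.65 (vehicle 2), and those over all probe sets from 7.95 (vehicle 3) to 7.98 (HDACi 2). The platform annotation gave 1 symbol to 15310 of 29214 probe sets, several to 323 and none to 13581. For 15279 of the single symbols the current RefSeq (GRCr8) symbol was found. Probe sets with the same single symbol were averaged per gene. Groups came from the sample labels, and the study calls the replicates biological. HDACi and vehicle were compared on 14506 genes with limma 3.58.1 (R 4.3.3; lmFit, eBayes), with no filter and no block, two-sided, and p values were adjusted by Benjamini-Hochberg over all genes. Exact permutation tests used all 70 assignments of the arrays. The number of arrays limits the precision. Members and lists were chosen with earlier results of these data known, so families and lists have counts and medians and no test. Genes named by rule were members with p under 0.01 for a gene or probe set or without overlap, the brightest, most raised and most lowered of each family, textbook inducible and constitutive members, members with a stray array and list genes with p under 0.01. Others were named with their values seen. The fit was tested on simulated data with known changes. RefSeq promoter windows matched 50 of 62 members. Alternatives were other probe set summaries, filters, normalizations, array weights, variance settings, the replicate block and each array left out.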

Additional observations from a re-analysis of the deposited data

Results flagged for a closer look

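In 3 of 124 groups of 4 arrays (62 members in HDACi and in vehicle cord) a single array stood apart from the other 3 by Dixon's criterion, and chance alone flags about 1 group in 20. Hspa13, an Hsp70 of the endoplasmic reticulum, was at 10.08 on HDACi 4 and between 9.98 and 9.99 on the other HDACi arrays, a gap of 0.912 of the group's range. Dnajc25 was at 8.55 on HDACi 2 and between 8.39 and 8.42 on the other HDACi arrays, a gap of 0.852 of the range. Hspa8 was at 13.66 on vehicle 2 and between 13.59 and 13.60 on the other vehicle arrays, a gap of 0.842 of the range.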

How the results depend on the processing

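The members' median log2 fold change stayed below 0 under every alternative run, between -0.06 and -0.03, with 40 to 57 below 0 where filters and probe sets changed how many were counted. Over all genes, 379 features had p under 0.01 with every probe set fitted, against 212 genes, and 113 to 259 genes without a single array. Members lower at p under 0.01 numbered 1 with every probe set, against 0.616% of all probe sets. They numbered 1 with the brightest probe set per gene (Hspd1) and 1 with trend and robust settings (Hspd1). They numbered 2 without moderation of the variances (Dnajc16 and Dnajc18) and 0 to 1 without a single array, all from limma fits. In the 3 fits with named genes, 213, 282 and 253 of 14506 genes had p under 0.01 in either direction. Members higher at p under 0.01 numbered 0 to 1 without a single array. Members lower at p under 0.05 numbered 11 (17.7%, against 5.49% of all genes in that fit) with trend and robust settings. They numbered 5 (8.06%, against 5.67%) with array quality weights and 3 (4.84%, against 3.61%) with the replicate block. Without a single array they numbered 2 to 10, where 3.33% to 5.2% of all genes were lower. Those higher numbered 0 above the median of mean signal and 0 to 2 without a single array. Lower members without overlap numbered 6 (8.45%, against 2.82% of all probe sets) with every probe set, 5 (8.06%, against 3.39% of all genes) after quantile normalization and 3 to 14 without a single array, where 5.01% to 6.68% of all genes were lower without overlap (14 members without HDACi 1, 7 without vehicle 4, and 6 without HDACi 4, vehicle 1 or vehicle 3), and higher members without overlap numbered 0 after quantile normalization or centring. The DnaJ B median was 0.0056 and the small heat-shock protein median 0.029 with array quality weights, and the second was 0.0070 without HDACi 1 and -0.10 without vehicle 3 or vehicle 4. Hspb1, at -0.01, was 0.071 with those weights and ran between -0.35 and 0.35 without a single array, and Hspb8 ran between -0.16 and 0.24. The cause of these changes was not tested, except that leaving out an array leaves fewer samples. Same-numbered arrays deviated with correlations of -0.27, 0.36, 0.04 and 0.06. Such correlations cannot show whether the numbers pair samples, and the block is given only as an alternative. With 4 arrays a group, small differences such as these are near the limit of what the arrays resolve.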

Other observations

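Cryab, or alpha B crystallin, is an abundant small heat-shock protein of glia and muscle that the member rule leaves out because of its symbol. It had 11.56, 12.23, 11.73 and 11.83 in HDACi cord and 12.28, 12.47, 11.70 and 11.65 in vehicle cord. HDACi 1 was below every vehicle array, vehicle 1 and vehicle 2 were above every HDACi array, and the other arrays were mixed. The log2 fold change was -0.19 (SE 0.20, adjusted p = 0.859 in limma, exact permutation p = 0.457). Vehicle 2 was its highest array, as for Hspb1 and Hspb8. Bag3, the Hsp70 cochaperone that works with Hspb8, had 9.66, 9.76, 9.64 and 9.57 in HDACi cord and 9.65, 10.02, 9.59 and 9.61 in vehicle cord. It too was highest on vehicle 2, with a difference of -0.06 (SE 0.09, adjusted p = 0.916 in limma, exact permutation p = 0.771).

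In the marker lists of other cells 1 gene rose past the study's threshold, and 1 of 10 measured immediate early genes did, against 0.607% of all genes. Des, the intermediate filament desmin of muscle and mural cells, had 7.95, 8.46, 8.21 and 8.29 in HDACi cord and 7.34, 7.61, 7.61 and 7.65 in vehicle cord. These groups did not overlap, and the difference was 0.67 (SE 0.11, p = 1.32e-04 and adjusted p = 0.610 in limma, exact permutation p = 0.0286). Junb, an immediate early transcription factor, had 8.95, 9.24, 8.93 and 9.04 in HDACi cord and 8.83, 8.79, 8.74 and 8.77 in vehicle cord. It was higher on every HDACi array, by 0.26 (SE 0.07, p = 0.00417 and adjusted p = 0.610 in limma, exact permutation p = 0.0286).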
